A study of Nomascus leucogenys with 4 samples.

Results

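The sites described here are isolated PU.1 peaks of middle occupancy that were called in both of 2 gibbon lymphoblastoid lines. A site was a peak of the first individual, Ricky (replicate 1), that overlapped a peak of the second, Vok (replicate 2), by at least 1 bp on a placed autosome. It was paired with the overlapping Vok peak of highest pileup, the number of ChIP fragments covering the summit. Sites with a pileup of 26 to 99 in both individuals numbered 2494 of 5294 shared autosomal sites (47.1%). Of these, 574 had no other peak of either list within 100 kb of the Ricky summit, leaving out peaks that overlapped the site, and these are the isolated sites. The remaining 1920 had at least 1 such neighbour and serve as the comparison. The sites were chosen by measured values, namely pileup, sharing and neighbours, so these measures are given as descriptions, with no test.

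PU.1 ChIP-seq, which sequences DNA recovered with an antibody to the factor, was done in Nomascus leucogenys lymphocyte lines transformed with Epstein-Barr virus. Each individual gave 1 PU.1 ChIP library and 1 input library made without antibody, so the design has 4 libraries and no replicate within an individual. Both lines carry the viral transformation, and no treatment, age or sex is given in the labels. After duplicate removal the ChIP libraries held 39743757 fragments in Ricky and 42905332 in Vok, and the lists held 11362 and 6392 autosomal peaks. Each value below comes from 1 library per individual. Intervals are exact 95% intervals that cover counting error only, since PCR-amplified fragments and neighbouring sites are not independent.

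The SPI1 gene encodes PU.1, a member of the ETS family that recognises purine-rich DNA around a GGAA core. It is required for myeloid and B-lymphoid development and can open chromatin at distal enhancers. In B cells it also binds jointly with the interferon regulatory factors IRF4 and IRF8 at composite elements. Many of its strongest sites in blood cells lie in groups within enhancer clusters, whereas others stand alone.

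The isolated sites lay in the middle to upper range of each list, as their name says. A pileup of 26 exceeded 44.3% of the autosomal peaks of Ricky and 37.3% of those of Vok, and a pileup of 99 exceeded 89.5% and 89.9%. The isolated sites had a median pileup of 52 in Ricky (quartiles 39 and 65.75), with a range from 26 to 99. In Vok the median was 36 (quartiles 30 and 45.75) and the range 26 to 96. These medians lay above 76.8% of the Ricky peaks and 59.7% of the Vok peaks. Both pileups were between 26 and 49 at 253 isolated sites (44.1%) and between 50 and 99 at 91 (15.9%). Another 215 sites (37.5%) were in the upper class in Ricky and in the lower class in Vok, against 15 sites (2.61%) the other way round. At the comparison sites these shares were 38.5% and 1.56%.

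In Ricky the −log10 q of the 574 peaks ran from 7.87 to 103 with a median of 36.1. In Vok the median −log10 q was 18.8 and the weakest site had 1.95. Fold enrichment over the local background had a median of 11.1 in Ricky (quartiles 8.31 and 14.5) and 7.26 in Vok (5.95 and 9.03). The comparison sites, held to the same limits, had medians of 53 and 36 for pileup and of 11.3 and 7.18 for fold enrichment. The isolated sites were thus set beside neighboured sites of nearly the same height.

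The share of isolated sites is given by pileup class as a description, since pileup and neighbours both chose the sites. Over all shared autosomal sites, 1164 (22.0%) had no other peak within 100 kb. The share was 29.3% (interval 25.5% to 33.3%) of the 550 sites with a pileup under 26 in both individuals. It was 23.0% (21.4% to 24.7%) at 26 to 99, and 15.2% (12.4% to 18.3%) of the 606 sites over 99 in both. Of the 1644 sites whose pileups fell in different classes in the individuals, 337 (20.5%, 18.6% to 22.5%) were isolated. Sites next to each other are not independent, and the order of the classes was not tested.

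**Figure D1:**
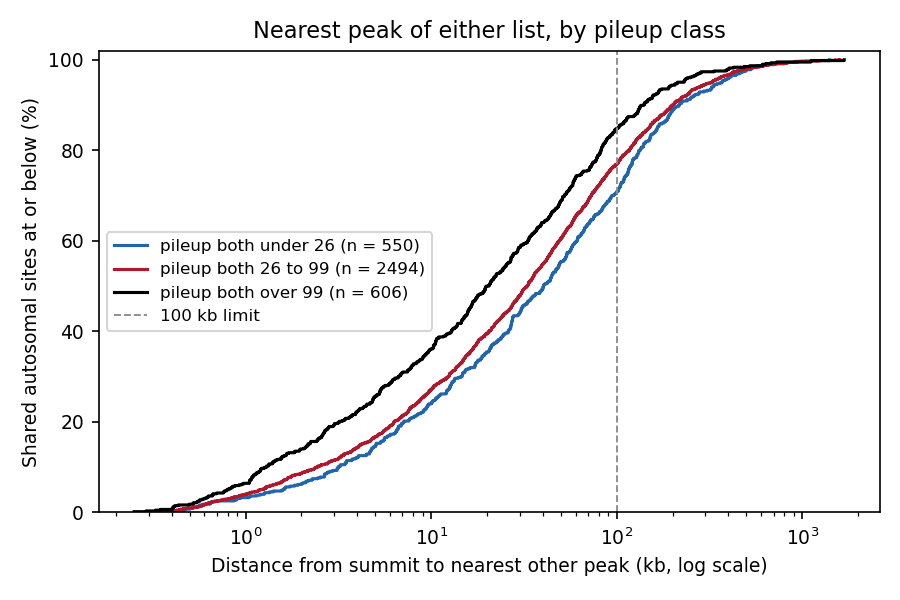
Cumulative share of shared autosomal sites (y axis, %) by the distance from the Ricky summit to the nearest other peak of either list (x axis, kb, log scale), for 3 pileup classes. At the dashed 100 kb line the curves leave 29.3%, 23.0% and 15.2% of sites to the right, in order of rising pileup.

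The nearest peak lay a median of 184 kb from an isolated summit (quartiles 131 and 287 kb), and the farthest nearest peak was 1593 kb away. At the comparison sites the median was 18.7 kb (quartiles 6.10 and 44.7 kb). No peak lay within 200 kb at 249 isolated sites (43.4%), within 500 kb at 51 (8.89%) and within 1000 kb at 8 (1.39%). At 3 isolated sites the lists held no further peak on one side up to the end of the chromosome's peaks. The nearest other shared site was a median of 283 kb away, and at 155 isolated sites (27.0%) it was more than 500 kb away.

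The peaks that bordered the isolated sites had a median pileup of 25 (quartiles 19 and 40.75). Of the 574 nearest peaks, 293 (51.0%) had a pileup under 26 and 37 (6.45%) a pileup over 99. The nearest peak was itself shared between the individuals in 237 cases (41.3%, interval 37.2% to 45.4%). At the comparison sites the nearest peak was shared in 971 of 1920 cases (50.6%, interval 48.3% to 52.8%) and had a median pileup of 29, with 40.9% under 26 and 9.90% over 99. Of all autosomal Ricky peaks, 44.3% had a pileup under 26. The nearest edge was that of a Ricky peak at 463 isolated sites and of a Vok peak at 111, from lists of unequal length. For the 237 shared nearest peaks, which are in both lists, this gives only which copy reached closer. Isolated sites bordered each other at times: the nearest peak was another isolated site in 56 cases (9.76%). In the order of the Ricky list, 462 isolated sites stood singly between other peaks, and the longest run of isolated sites in succession held 4.

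Most comparison sites had a neighbour in both lists. Where only a single list gave a neighbour, it was mostly the longer list, that of Ricky. Counting neighbours in the Ricky list alone would leave 620 of the 2494 sites isolated (24.9%), and counting them in the Vok list alone would leave 986 (39.5%). At 412 comparison sites (21.5%) the neighbour was present only in the Ricky list, and at 46 (2.40%) only in the Vok list. The other 1462 (76.1%) had a neighbour in both lists.

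The 6 most isolated sites show what such a peak looks like. Positions are 1-based and follow the peak lists, for which no source used here gives the genome build. The first, on chromosome 9 at 21512324 to 21512633, had empty stretches of 1593 and 1673 kb on its sides. It held 32 fragments in Ricky (Poisson interval 21.9 to 45.2) and 46 in Vok (33.7 to 61.4), with summits 5 bp apart. It was higher in Vok, with overlapping counting intervals of the raw pileups. Its ratio of Vok to Ricky was 1.44, against a median of 0.706 over all shared autosomal sites. The peak nearest to it was another isolated site.

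The second, on chromosome 15 at 101958051 to 101958437, held 52 fragments in Ricky and 45 in Vok, and its nearest other shared site was 3460 kb away, the largest such distance among the 574. A site on chromosome 5 at 89804430 to 89804832 held 57 and 28 fragments (intervals 43.2 to 73.9 and 18.6 to 40.5), with both summits on the same base. Its counting intervals of the raw pileups do not overlap, at a ratio of Vok to Ricky of 0.491. These intervals are not set against the lower pileup in Vok at most shared autosomal sites (median ratio 0.706). A site on chromosome 2 at 107743354 to 107743685 stood at the low end with 26 and 27 fragments.

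The fifth, on chromosome 12 at 37932712 to 37933210, held 41 and 35 fragments. The sixth, on chromosome 4 at 130646934 to 130647425, held 78 and 33. Pileups of the 6 sites ran from 26 to 78 in Ricky and from 27 to 46 in Vok, within the range of the isolated sites as a whole. Their summits differed by 0 to 14 bp between the individuals. Extreme distance from other peaks went with both low and high pileups among these 6.

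The 5 isolated sites of highest joint occupancy were nearly at the upper limit in Ricky. A site on chromosome 18 at 65585471 to 65585965 held 96 fragments in Ricky and 90 in Vok (intervals 77.8 to 117 and 72.4 to 111), and its nearest peak, 350 kb away, was an unshared one of 20 fragments. A site on chromosome 12 at 50152107 to 50152519 held 96 and 89 with both summits on the same base, and one on chromosome 10 at 10973064 to 10973583 held 94 and 83. The last of these was bordered by another isolated site, of 78 fragments, 159 kb away.

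The site on chromosome 16 at 45419887 to 45420418 held 98 and 77 fragments. That on chromosome 14 at 11140472 to 11140942 held 99 and 76. All 5 were higher in Ricky, at ratios of Vok to Ricky from 0.768 to 0.938. Choosing the highest geometric means under a limit of 99 in both lists restricts how far such ratios can lie from equal pileup. All 5 had summits within 2 bp of each other, closer than at most isolated sites.

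The limits of the rule cut through a continuous range. The isolated site nearest to the 100 kb limit, on chromosome 22a at 115773383 to 115773640, had its neighbour at 101 kb and held 42 and 45 fragments. Just outside, a pair of sites on chromosome 5, at 105119435 to 105119791 and 105219505 to 105219802, were each other's neighbours at 99.9 kb and held 40 and 33, and 32 and 42 fragments. At the lower pileup limit, the site on chromosome 15 at 72825627 to 72825977 held 26 fragments in both individuals. An isolated site on chromosome 19 at 62244170 to 62244611 held 61 fragments in Ricky but fell outside with 25 in Vok. Isolated shared sites with exactly 25 fragments in Vok and an eligible pileup in Ricky numbered 28, against 36 with exactly 26. At the upper limit, 2 isolated sites had 99 fragments in Ricky, and 3 with 100 were left out.

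The next question was whether the individuals occupied the isolated sites to the same degree. Pileup was lower in Vok at 468 of 574 isolated sites (81.5%, interval 78.1% to 84.6%), beside 83.7% of all shared autosomal sites, so the share was near the background. It was higher in Vok at 92 (16.0%, interval 13.1% to 19.3%), beside 14.3% of all shared autosomal sites, and equal at 14. The median ratio of Vok to Ricky was 0.739 (interval 0.722 to 0.766), with quartiles of 0.609 and 0.925. At the comparison sites it was 0.723 (0.713 to 0.734), and over all shared autosomal sites 0.706. The intervals of the isolated and the comparison sites overlap. The ratio was 0.769 (0.735 to 0.806) at isolated sites with a geometric mean pileup of 26 to 49, and 0.692 (0.657 to 0.744) at 50 to 99. The comparison sites had 0.759 and 0.667. All shared autosomal sites of these classes, not held to the limits in each list, had 0.712 and 0.636. The limits of 26 and 99 restrict the ratio within each class, so these values are a description.

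Dividing by the ratio of ChIP fragments, 1.08, lowered the median ratio at isolated sites to 0.684, with 507 of 574 (88.3%) then lower in Vok. The same division gave medians of 0.670 at the comparison sites and 0.654 over all shared autosomal sites. The share lower in Vok after division was computed for the isolated sites only. Peak calling was done per individual with no scaling between the lists, and with 1 library each a common shift of the library and one of binding cannot be told apart. Fold enrichment was lower in Vok at 499 isolated sites (86.9%), against 88.1% of all shared autosomal sites.

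At the comparison sites pileup was lower in Vok at 86.4% (interval 84.7% to 87.9%), beside the 81.5% of the isolated sites. With the pileup limits applied to Ricky alone, the shares were 85.7% (83.1% to 88.1%) of 778 isolated and 89.5% (88.2% to 90.6%) of 2660 neighboured sites. With the limits applied to Vok alone it was 79.6% (76.4% to 82.5%) of 706 and 85.0% (83.5% to 86.4%) of 2482. Both of these settings were chosen after the data were seen. The 3 settings share the same 574 sites and use pileup, on which the sites were chosen, so they are a description and the difference was not tested. The intervals of the share lower in Vok stayed apart in all 3, by little with the limits in both or in Ricky alone. Those of the median ratio overlapped in all 3. They were 0.694 to 0.735 (isolated) and 0.686 to 0.702 (neighboured) with the limits in Ricky alone. With the limits in Vok alone they were 0.702 to 0.750 and 0.689 to 0.707.

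**Figure D2:**
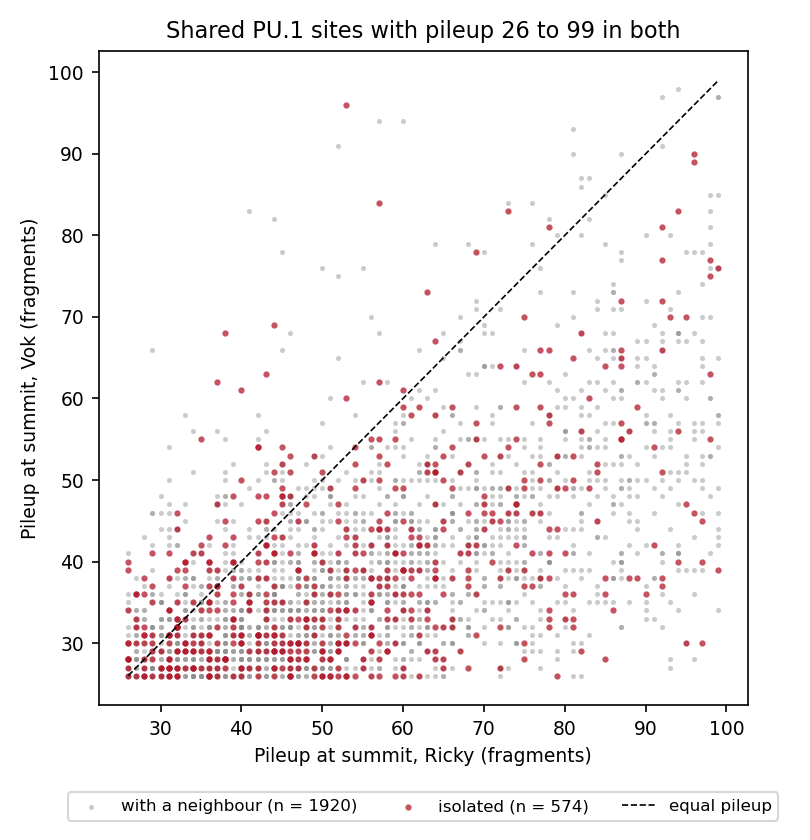
Pileup at the summit in Ricky (x axis) and Vok (y axis), in fragments, for the 574 isolated sites (red) and the 1920 sites with a neighbour (grey), with a dashed line of equal pileup. Of the isolated sites 468 lie below the line, and both sets fill the same area.

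Differences between individuals at single isolated sites were mostly within a factor of 2. Pileup was at least 2-fold lower in Vok at 63 isolated sites (11.0%), beside 13.3% of all shared autosomal sites, and at 10.3% of the comparison sites. It was at least 2-fold higher in Vok at 0 of 574 isolated sites, which by a floor of 3 counts allows a share of up to 0.523% (exact upper limit 0.641%), beside 0.888% of all shared autosomal sites and 2 of the 1920 comparison sites. The limits of 26 and 99 themselves restrict how large a ratio can be. The correlation of log2 pileup between the individuals was 0.524 across the 574 isolated sites and 0.609 across the comparison sites, both within these limits, and is given as a description.

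The share of Vok in the summed pileup of a site had a median of 41.4% over all shared autosomal sites. The exact binomial interval of this share lay wholly below that common value at 39 isolated sites (6.79%), beside 11.8% of all shared autosomal sites and 6.25% of the comparison sites. It lay wholly above it at 53 (9.23%, interval 6.99% to 11.9%), beside 7.23% of all shared autosomal sites and 6.72% (5.64% to 7.93%) of the comparison sites. At 482 isolated sites (84.0%) the interval held the common value.

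The largest differences between individuals came, as the pileup limits require, from sites high in one and low in the other. The isolated site with the lowest ratio, on chromosome 3 at 74101592 to 74102084, held 97 fragments in Ricky (interval 78.7 to 118) and 30 in Vok (20.2 to 42.8), a ratio of 0.309. On chromosome 6 at 100055590 to 100056126 there were 95 and 30 fragments, with summits 1 bp apart. On chromosome 11 at 8170492 to 8170916 there were 79 and 26. In each of the 3 the raw counting intervals do not overlap, beside a median ratio of 0.706 over all shared autosomal sites. The peak was also narrower in Vok, at 231 to 308 bp against 425 to 537 bp in Ricky.

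In the opposite direction, a site on chromosome 2 at 83580145 to 83580521 held 38 fragments in Ricky (interval 26.9 to 52.2) and 68 in Vok (52.8 to 86.2), a ratio of 1.79. A site on chromosome 16 at 30185097 to 30185491 held 37 and 62. The highest ratio, 1.81, belonged to a site on chromosome 4 at 33222444 to 33222680, with 53 and 96 fragments. There the local background was also raised, at 13.4 fragments in Ricky and 31.9 in Vok, or 4.01 and 8.25 times the lowest level of each list. Its fold enrichment was 3.76 in Ricky and 2.94 in Vok, so by that measure the site was lower in Vok.

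Whether an isolated peak of one individual was found in the other is a measure that the neighbours in the first list do not fix. For this, autosomal peaks with a pileup of 26 to 99 in one list were called isolated from that list alone, and the other list gave the outcome. Of 1278 isolated Ricky peaks, 843 (66.0%, interval 63.3% to 68.6%) were overlapped by a Vok peak, against 2595 of 3880 neighboured ones (66.9%, 65.4% to 68.4%). Recovery of Ricky peaks thus differed by less than the counting error. Of 1313 isolated Vok peaks, 1262 (96.1%, interval 94.9% to 97.1%) were overlapped by a Ricky peak, against 1931 of 2059 neighboured ones (93.8%, 92.7% to 94.8%). These intervals stay just apart, and the difference was not tested.

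Among isolated peaks of either list, recovery was higher in each higher pileup class. Among isolated Ricky peaks it was 41.7% at 26 to 34 fragments, 71.3% at 35 to 49 and 95.7% at 50 to 99. The neighboured Ricky peaks had 42.7%, 70.8% and 92.5%. Among isolated Vok peaks it was 93.8%, 97.2% and 98.4% in the same classes, and among neighboured ones 89.3%, 97.1% and 96.1%. The isolated share was higher in 5 of these 6 classes. Intervals overlapped in 5 of the 6, the exception being Vok peaks of 26 to 34 fragments (91.4% to 95.6% against 86.9% to 91.3%).

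**Figure D3:**
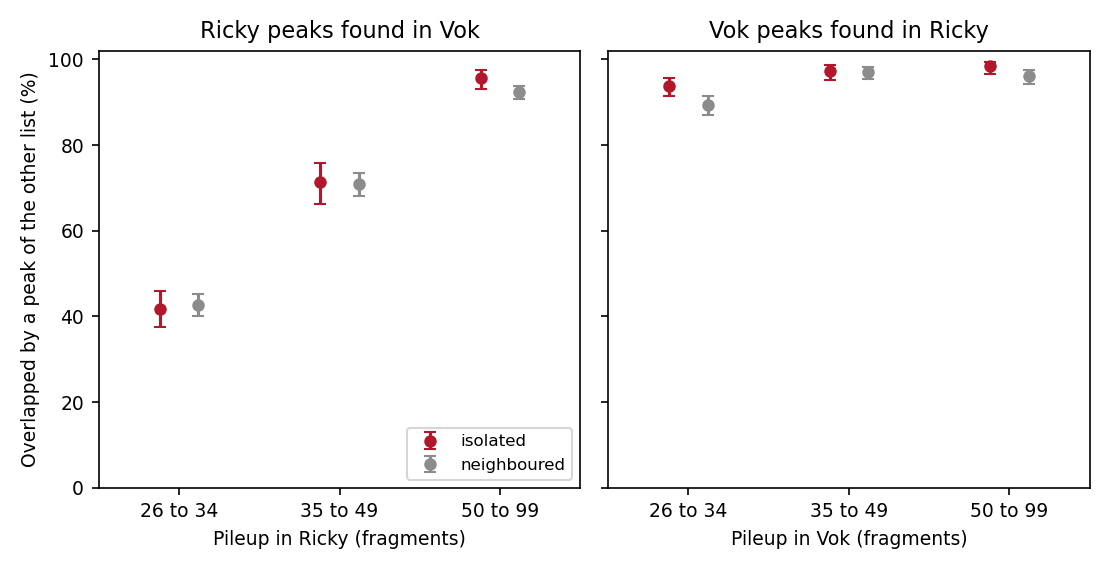
Share of autosomal peaks of one individual that were overlapped by a peak of the other (y axis, %), by pileup class (x axis, fragments), for peaks isolated (red) or neighboured (grey) in their own list. Bars are exact 95% binomial intervals, and isolated Ricky peaks rise from 41.7% to 95.7%.

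The isolated peaks were compact, with the summit near the middle. Their median width was 410.5 bp in Ricky (quartiles 350 and 471) and 325.5 bp in Vok (278 and 379). Of the 574, 455 (79.3%) were wider in Ricky, beside 79.5% of the comparison sites and 79.7% of all shared autosomal sites. The summit sat near the middle of the peak, at a median relative position of 0.501 in Ricky (quartiles 0.451 and 0.549), where 0 and 1 are the ends. In Vok it was at 0.507. The comparison sites had median widths of 425 bp (interval of the median 419 to 430) and 334 bp (330 to 339), and the isolated sites 410.5 bp (403 to 419) and 325.5 bp (316 to 338).

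Width followed pileup, with a Spearman correlation across the isolated sites of 0.713 in Ricky and 0.703 in Vok. Within pileup classes the isolated and the comparison sites were close. At 26 to 49 fragments the medians in Ricky were 355 bp (interval 343 to 364) at isolated and 352 bp (348 to 359) at comparison sites. At 50 to 99 fragments they were 455 bp (446 to 467) and 468 bp (462 to 475). In Vok they were 307 and 316 bp in the lower class, and 417 and 428.5 bp in the upper. The intervals of the median overlap in all 4 of these pairs.

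**Figure D4:**
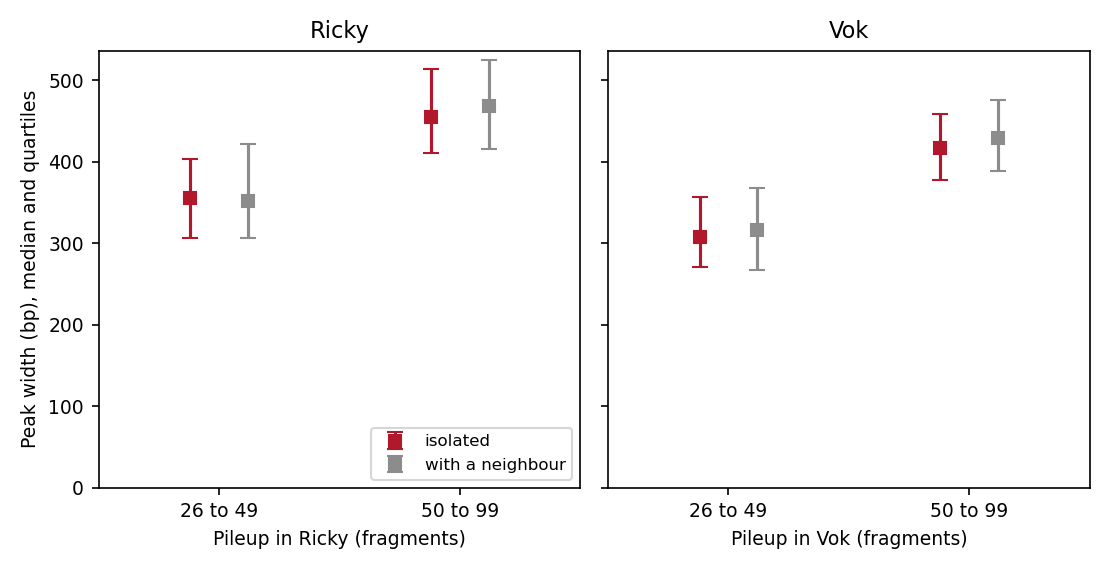
Peak width in bp (y axis) in each individual by pileup class (x axis), for isolated sites (red) and sites with a neighbour (grey). Squares are medians and bars run between the quartiles, and width rises with pileup in both sets, from 355 to 455 bp at isolated sites in Ricky.

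Both individuals placed the summit at almost the same base. At the isolated sites the paired summits lay a median of 7 bp apart (quartiles 3 and 15), against 8 bp (3 and 15) at the comparison sites. The same base was the summit at 24 isolated sites (4.18%), beside 4.58% of the comparison sites and 5.78% of all shared autosomal sites. Summits within 50 bp were found at 561 isolated sites (97.7%, interval 96.2% to 98.8%). The comparison sites had 97.2% (96.3% to 97.9%) within 50 bp, and all shared autosomal sites 93.4%. The median was 8 bp at isolated sites with a geometric mean pileup of 26 to 49 and 4 bp at 50 to 99. At 3 isolated sites the summits were more than 100 bp apart, the farthest being 313 bp, on chromosome 18 at 89458968 to 89459337, where the Vok summit lies outside the Ricky peak. That site too had a raised background, 3.27 times the lowest level in Ricky and 5.64 times in Vok.

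The local background, computed as (pileup + 1)/fold enrichment − 1, was at its lowest level at most isolated sites. This level is the genome-wide background of a list, 3.33 fragments in Ricky and 3.87 in Vok. In Ricky 351 isolated sites (61.1%, interval 57.0% to 65.2%) were within 0.01 fragments of it, and in Vok 374 (65.2%, 61.1% to 69.1%). The comparison sites had 58.8% (56.5% to 61.0%) and 63.4% (61.2% to 65.6%). A background over 2 times the lowest level was found at 8 isolated sites in Ricky (1.39%, interval 0.604% to 2.73%) and 3 in Vok (0.523%). At the comparison sites it was found at 62 (3.23%, 2.48% to 4.12%) and 41 (2.14%). The sites on chromosomes 4 and 18 described above were the 2 isolated sites with such a background in both individuals.

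Isolated sites were found on all 25 autosomes, from 1 on chromosome 25 to 43 on chromosome 2, or 0.217 per Mb of the span covered by peaks. As a share of the sites with the same pileup they ranged from 4.17% on chromosome 25 (1 of 24, interval 0.105% to 21.1%) to 34.4% on chromosome 11 (33 of 96, interval 25.0% to 44.8%). Of the 25 intervals, 1 lay wholly above the common 23.0%, on chromosome 11, and 2 lay wholly below it, on chromosomes 25 and 8. On chromosome 8 the share was 13.9% (16 of 115, interval 8.17% to 21.6%). The share is bound by construction to how densely a chromosome carries peaks. Across the 25 chromosomes the Spearman correlation with the number of Ricky peaks per Mb was -0.51, given as a description.

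Chromosome 19 stood off that trend, a remark made after its values were seen. With 5.32 Ricky peaks per Mb it was among the denser chromosomes, yet 30 of its 96 sites (31.3%, interval 22.2% to 41.5%) were isolated, and it had the most isolated sites per Mb, 0.368. Chromosome 8, with 4.97 peaks per Mb, had 0.136. The median ratio of Vok to Ricky was below 1 on each of the 22 chromosomes with at least 10 isolated sites, from 0.632 on chromosome 17 to 0.894 on chromosome 21.

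**Figure D5:**
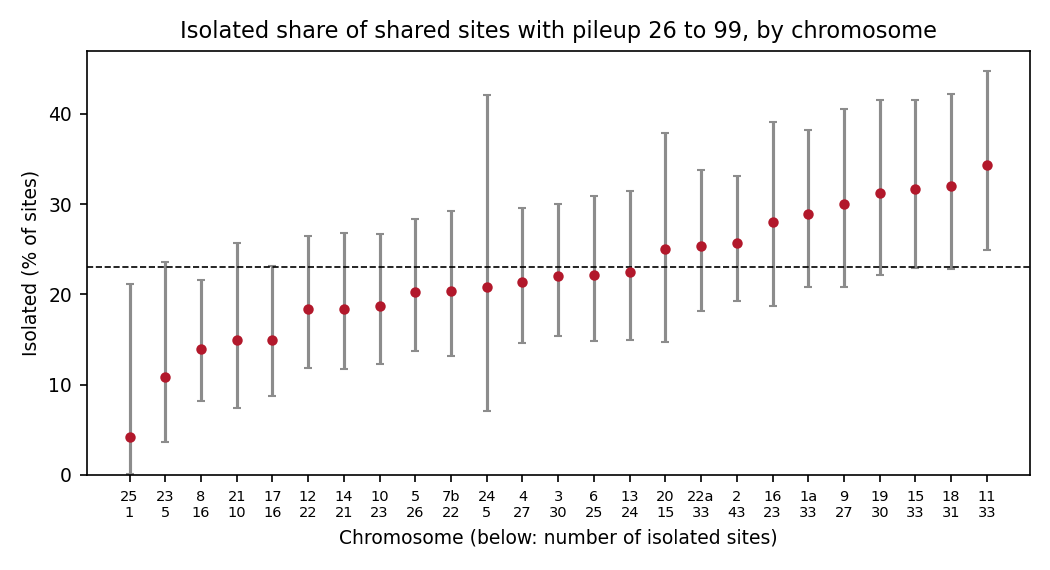
Isolated share of the sites with a pileup of 26 to 99 in both individuals (y axis, %) for each autosome (x axis, with the number of isolated sites under the name), with exact 95% binomial intervals. The dashed line marks the common share of 23.0%, and the intervals of chromosomes 25, 8 and 11 do not reach it.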

How the data were processed

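PU.1 ChIP and input libraries of 2 individuals were used through their deposited peak lists. Per the file headers, trimmed bwa alignments with a mapping quality of at least 30 were given to MACS 2.1.1.20160309 in its mode for paired ends, with the own input as control, a q threshold of 0.05 and 1 duplicate kept. The submitters' processing notes also name Bowtie2. The deposited values are a pileup signal at the summit, a fold enrichment ratio over background, and −log10 p and q values. The headers state that the larger library is scaled towards the smaller, but the pileups are whole numbers and were read as unscaled ChIP fragments, on which the Poisson intervals and ratios rest. Replicate numbers follow accession order.

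Sites were built as the report describes, with distance measured from the Ricky summit to the nearest base of the other peak. Site building was tested on simulated lists. Medians carry binomial order-statistic intervals, shares Clopper-Pearson intervals, pileups Poisson intervals, all at 95%. Software was SciPy 1.17.1, numpy 2.4.6 and pandas 2.3.3 under Python 3.11.15, with plots by matplotlib 3.10.9.

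The sites and lists were chosen with earlier results of these data known. Regions named are the 6 most isolated, the 5 highest, the 3 highest and 3 lowest ratios, and those at the limits. Gene context and sequence, planned for a genome of the lists' build, were not analysed here, nor was the repeat family table.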

Additional observations from a re-analysis of the deposited data

How the results depend on the processing

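The number of isolated sites, the distance to the nearest peak and, in some settings, the width moved with the limits chosen. Instead of 574, there were 984 with a neighbour distance of 50 kb, 249 with 200 kb, 362 with pileups of 30 to 80, 933 when neighbours needed a −log10 q of at least 10, and 1088 when only shared peaks counted as neighbours, the last added after the data were seen. Leaving out 1 individual gave 1278 to 1313 sites, since sharing was then not required. In Vok, without replicate 1, their median width was 341 bp, beside 325.5 bp at the 574 sites. In Ricky, without replicate 2, it was 360 bp, beside 410.5 bp. Of these sites 61.7% to 65.2% were at the lowest background, with a nearest peak at a median of 182920 to 226836 bp. The nearest peak was at a median of 117956 bp with a 50 kb limit, 325043 bp with 200 kb, 228694 bp with neighbours of −log10 q of at least 10 and 254618 bp with shared neighbours. The median ratio of Vok to Ricky was 0.769 with pileups of 30 to 80 and 0.721 with the limits applied to Ricky only. The width was 389 bp with the limits in Ricky only and 421 bp with those in Vok only. Background at most 2 times the lowest level was found at 98.6% of isolated sites in Ricky. The other alternatives, which were chromosome X included, sites centred on Vok, distance between summits, overlap of 50% of each peak, paired summits at most 100 bp apart and a −log10 q of at least 10 at the sites, left the count within 1.5 times and the medians within their intervals. The summit offset stayed within its interval under all 13 alternatives run for it. Settings for gene context and sequence were not run. Ratios and summit offsets were taken within paired sites of the individuals, but no paired test was run, and the input libraries have no list. Depth, at 26 fragments or more, limits a single site's ratio to the widths of the Poisson intervals given.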
